A study of Mus musculus with 40 samples.

Results

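Heat shock and endoplasmic reticulum (ER) chaperone genes were followed across the recipient brain libraries, 9 of the 47643 genes listed in each deposited table. They were picked by symbol from a list of chaperones: the cytosolic HSP70 genes Hspa8, Hspa1a and Hspa1b, the cytosolic HSP90 genes Hsp90aa1 and Hsp90ab1, the HSP70 partners Dnajb1 and Hsph1, and the ER chaperones Hspa5 and Hsp90b1. The recipients were germ-free wild-type Swiss Webster mice, an outbred stock raised without microbes, which the study's methods describe as females aged 6 to 8 weeks on a control chow, and every one of them received a stool transplant, so no uncolonized group enters these comparisons. Pre-KD cohorts received the stool that 1 of 10 donors gave before a ketogenic diet (KD) and post-KD cohorts the stool that the same donor gave on the diet. Tissue of both regions was collected at day 4 of colonization, and 6 mice were pooled per library, which gave 10 pre-KD and 10 post-KD libraries for each region, 40 in all. The labels name no batch. The spread between libraries is a spread between pools from different donors, and the spread between mice was not measured. Library totals ran from 1140756 to 1947416 counts in the hippocampus and from 1188447 to 2095352 in the frontal cortex. Levels are in CPM (counts scaled to a common library total, with TMM normalization within each region). The summed level of 8 hippocampal marker genes was 897 to 1370 CPM in hippocampal libraries and 479 to 843 CPM in frontal cortical ones. The frontal cortical libraries held 364 to 814 CPM of 6 striatal marker genes against 25.3 to 243 CPM in the hippocampus. The sums of 8 cortical marker genes overlapped, at 301 to 669 CPM in hippocampal and 407 to 676 CPM in frontal cortical libraries. Of these 8, 3 were lower and 2 were higher in the hippocampus at an edgeR adjusted p under 0.05.

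Chaperones bind newly made or unfolded proteins and keep them from clumping. In the cytosol the ATP-driven HSP70 proteins take up clients that J-domain partners bring, exchange nucleotide with the help of HSP110 proteins, and pass some of these clients on to HSP90. Hspa8 encodes the constitutive HSP70 of the cytosol, which also strips clathrin from synaptic vesicles and is usually an abundant neuronal transcript, whereas Hspa1a and Hspa1b are a neighbouring gene pair switched on by heat shock factor 1. In the ER, BiP (Hspa5) and GRP94 (Hsp90b1) do the corresponding work and are induced by the unfolded protein response.

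Several of these genes have near-identical copies in the genome, so the sequences are given before the values. The stretches shown next are as long as 1 read of the study (69 bases) and centre on a base that differs between the copies, which is the part that lets a read be assigned. The capital letter marks that base, and positions count from 1 at the first coding base of the first gene named. Hspa8 (chr9:40800984-40810087, plus strand, build GRCm38) and the processed pseudogene Gm15459 (chr5:5781615-5783555) differed at 5 of 1938 coding bases, an identity of 99.74%, and the longest stretch without a difference was 672 bases. The example is G1222A.
Hspa8: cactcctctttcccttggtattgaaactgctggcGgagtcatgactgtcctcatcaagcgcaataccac
Gm15459: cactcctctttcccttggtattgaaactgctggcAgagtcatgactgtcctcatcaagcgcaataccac
Hspa1a (chr17:34969190-34972156, minus strand) and Hspa1b (chr17:34956436-34959238, minus strand) differed at 10 of 1923 coding bases, an identity of 99.48%, and the example is A921G.
Hspa1a: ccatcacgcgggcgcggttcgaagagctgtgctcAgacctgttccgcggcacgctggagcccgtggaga
Hspa1b: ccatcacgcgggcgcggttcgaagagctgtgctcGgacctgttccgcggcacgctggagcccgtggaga

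The other members lie on GRCm38 at chr12:110690605-110702728 (Hsp90aa1, minus strand), chr17:45567775-45573271 (Hsp90ab1, minus strand), chr8:83608193-83612653 (Dnajb1, plus strand), chr5:149614287-149636376 (Hsph1, minus strand), chr2:34771970-34777547 (Hspa5, plus strand) and chr10:86690209-86705509 (Hsp90b1, minus strand). The share of a transcript that a single read cannot place was measured as the share of its 69-base windows found exactly in the transcripts of another gene (GENCODE M21). It was 70.2% for Hspa8 (1633 of 2326 windows), 62.8% for Hspa1a, 57.3% for Hspa1b and 54.3% for Hsp90aa1, which shares most of them with the processed pseudogenes Gm12346, Gm5844 and Gm5511. It was 10.4% for Hsp90b1 and 1.47% for Hsp90ab1. No window of Dnajb1, Hsph1 or Hspa5 was shared. HTSeq-count by default leaves out reads that align to more than 1 place, but the setting used is not given in the sources used here, and a pair of reads can be placed by either end. The levels of Hspa8, Hspa1a, Hspa1b and Hsp90aa1 are therefore given as uncertain, and the part of shared sequence in them was not tested.

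**Figure D1:**
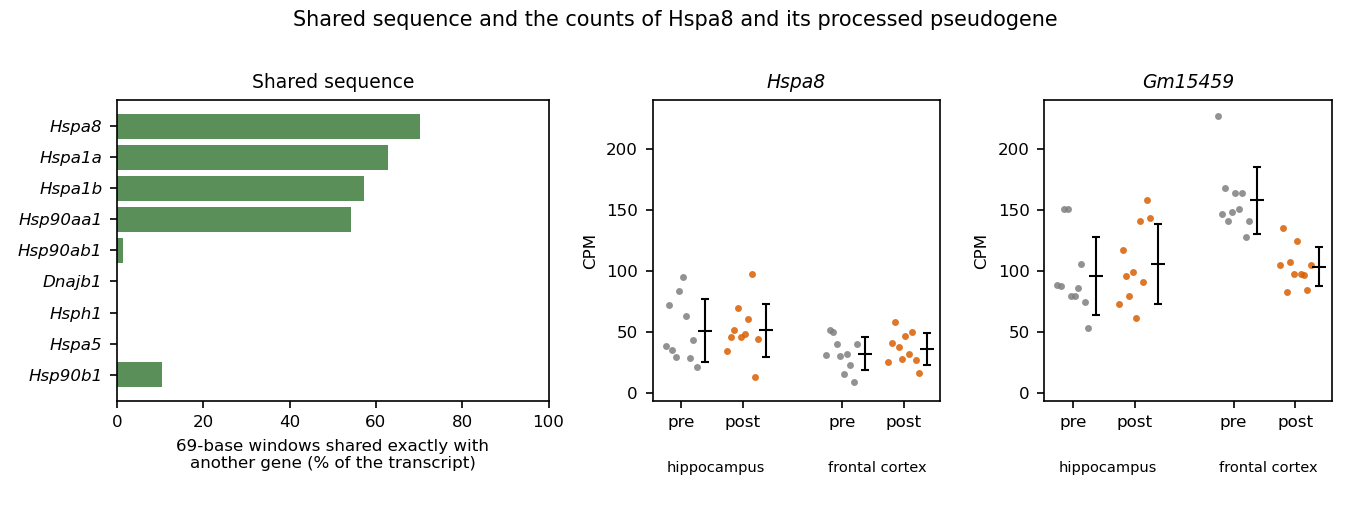
Left, the percentage of each member transcript's 69-base windows that occur exactly in another gene's transcripts (bars, axis from 0 to 100%). Middle and right, CPM of Hspa8 and of its processed pseudogene Gm15459 in each library (points, grey pre-KD and orange post-KD, with mean and SD over 10 libraries as black bars). Gm15459 lies above Hspa8 in most libraries, and its frontal cortical post-KD values sit below nearly all pre-KD ones.

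Start regions are shown for the members that hold an element known to be bound by heat shock factor 1 or by factors of the unfolded protein response. The 250 bases before the start were searched on both strands in RefSeq promoters (GRCm38.p6), which hold 6 of the 9 members, for the paired heat shock units GAANNTTC and TTCNNGAA and for the ER stress response element, which is CCAAT, 9 bases of any kind and CCACG. Capitals mark the match. Distances count from the RefSeq start, which for Hsph1, Hspa5 and Hsp90b1 lies inside the GENCODE gene span given above, so the Hsph1 and Hspa5 matches lie within those spans. Hspa1a and Hspa1b held the same GAANNTTC match, 104 bases before the start, and 6.69% of 32851 promoters held one. The windows are chr17:34972242-34972270 and chr17:34959324-34959352, both minus strand.
Hspa1a: gaaactgctgGAAGATTCctggccccaag
Hspa1b: gaaactgctgGAAGATTCctggccccaag
Hsph1 (chr5:149636351-149636379, minus strand) held a TTCNNGAA match 33 bases before the start, an element found in 7.17% of promoters.
Hsph1: ggtagaatctTTCTCGAAggctcgagaag
Hspa5 (chr2:34772020-34772048, plus strand) held 1 ER stress response element and Hsp90b1 (chr10:86705633-86705661 and chr10:86705528-86705556, minus strand) held 2, the second of them on the other strand. Only 37 promoters, 0.113%, held this element.
Hspa5: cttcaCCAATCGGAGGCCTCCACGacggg
Hsp90b1: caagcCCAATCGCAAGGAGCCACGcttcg
Hsp90b1: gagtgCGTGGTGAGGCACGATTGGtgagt
The promoter of Dnajb1 held no match to these letters. A match is a description of the letters and not of binding.

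Levels between genes were compared per kilobase, which assumes reads along the whole transcript, as the TruSeq kit of the labels gives. The study's list of resources also names a QuantSeq FWD kit, which reads transcript 3′ ends, and under such a kit neither the values per kilobase nor the shares of windows over whole transcripts would hold. On this scale the most abundant member was Hsp90ab1, followed by Hsp90aa1, in every library of both regions. Scaled to the longest coding transcript, Hsp90ab1 averaged 817 ± 179 CPM per kilobase (SD, n = 20) in the hippocampus against 816 ± 160 in the frontal cortex, and Hsp90aa1 averaged 225 ± 31.7 and 222 ± 31.8. The ER pair followed, with Hspa5 at 97.1 ± 24.9 and 98.3 ± 20.1 CPM per kilobase and Hsp90b1 at 88.2 ± 19.3 and 75.1 ± 12.6. Hspa5 was above Hsp90b1 in 14 of 20 hippocampal and 18 of 20 frontal cortical libraries, so these neighbours overlapped. Hsph1, the HSP110 nucleotide exchange factor, averaged 48.2 ± 14 and 59.9 ± 13 CPM per kilobase. Hspa8 stood at 21.5 ± 9.72 and 14.4 ± 5.49 and Dnajb1 at 20.3 ± 7.64 and 16.4 ± 6.24, and these neighbours could not be ordered, Hspa8 being the higher in 10 of 20 hippocampal libraries and Dnajb1 in 12 of 20 frontal cortical ones. The stress-inducible HSP70 genes were lowest, Hspa1b at 2.76 ± 2.67 and 1.99 ± 1.54 and Hspa1a at 0.701 ± 1.11 and 0.923 ± 0.991 CPM per kilobase.

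**Figure D2:**
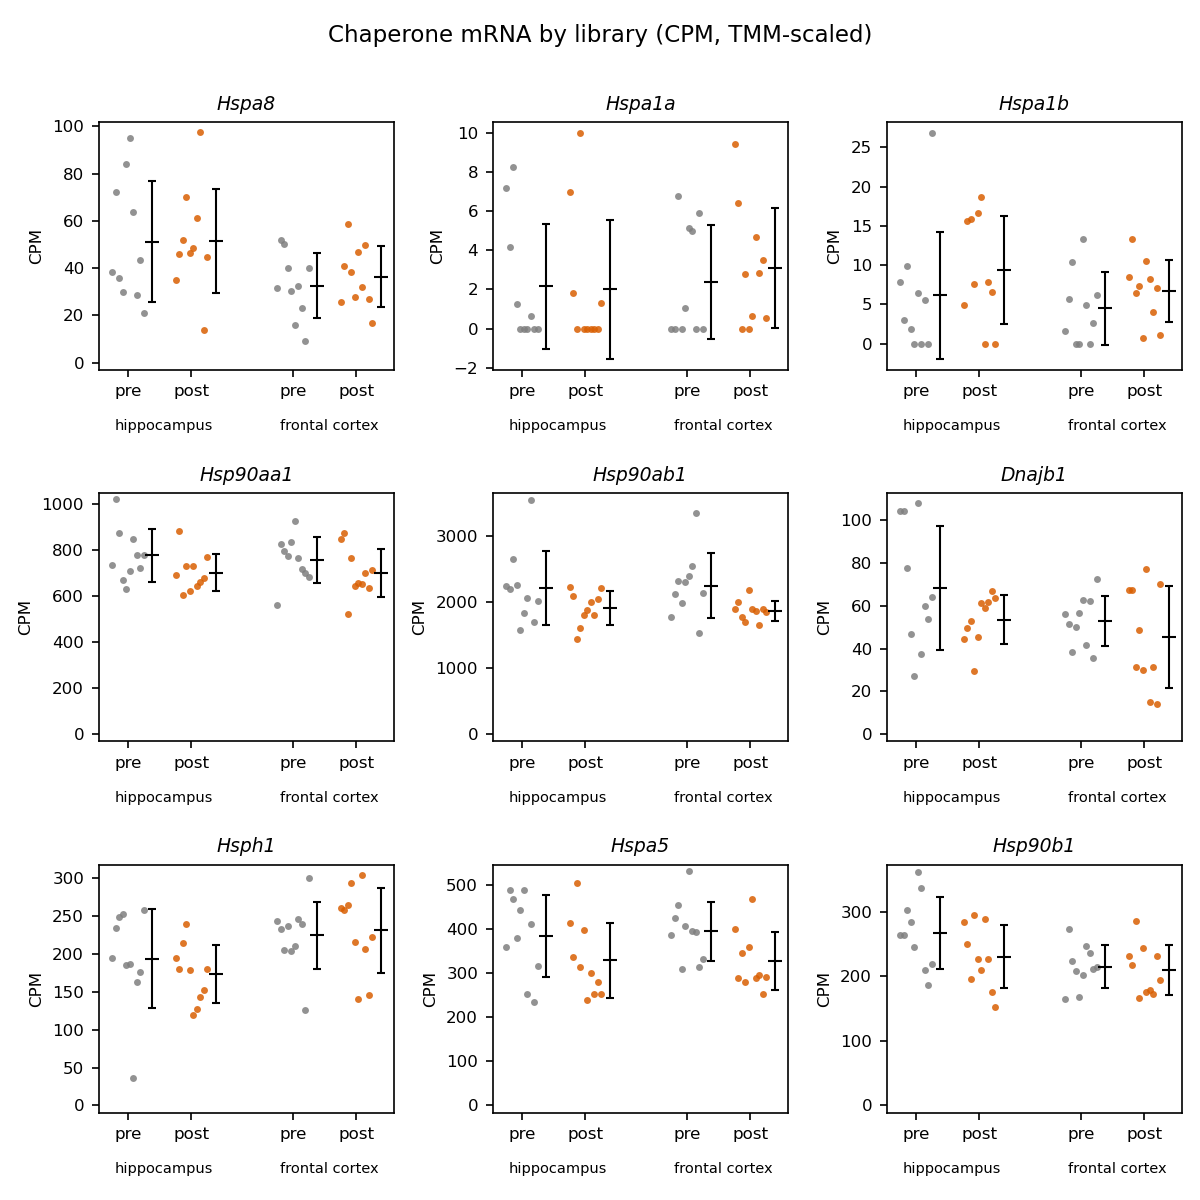
CPM of the 9 members in each library (points, grey pre-KD and orange post-KD, 10 per group in the order of the donors), with the mean and SD of each group as black bars to the right. The pre-KD and post-KD points overlap for every member in both regions, 1 pre-KD cohort stands highest for Hsp90ab1 in both regions, and 1 pre-KD hippocampal library stands far below the rest for Hsph1.

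The comparison of post-KD with pre-KD cohorts asks whether the stool given on the diet leaves a different chaperone transcript level in the recipient brain. No member passed an adjusted p of 0.05 in either region (edgeR quasi-likelihood test, Benjamini-Hochberg over 17529 hippocampal and 17873 frontal cortical genes), and the lowest adjusted p of a member was 0.404 in the hippocampus against 0.122 in the frontal cortex. Of all genes tested, 0.00570% passed it in the hippocampus against 0.00560% in the frontal cortex, 1 gene in each. Genes with an unadjusted p under 0.05 are called counted from here on, which is no call. By that measure 1 of 9 members was counted in the hippocampus (Hsp90ab1) beside 10.1% of all genes, and 2 of 9 in the frontal cortex (Hsp90ab1 and Hspa5) beside 9.68%. The shares among all genes that were also lower post-KD were 5.48% and 4.68%, and all 3 of these member values were lower post-KD. With the donor as a block the same comparisons counted 348 in place of 1762 hippocampal genes and 548 in place of 1731 frontal cortical genes at that level, with 1 and 2 members again, and 0 and 3 genes at the adjusted threshold, none of them a member. In the hippocampus 7 of 9 members had a log2 fold change below 0, with a median of -0.16 against -0.01 over all genes, of which 50.7% lay below 0. In the frontal cortex 5 of 9 did, with a median of -0.03 against 0.01 over all genes, of which 49.2% lay below 0. All 9 members passed the filter of 10 summed counts in both regions.

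**Figure D3:**
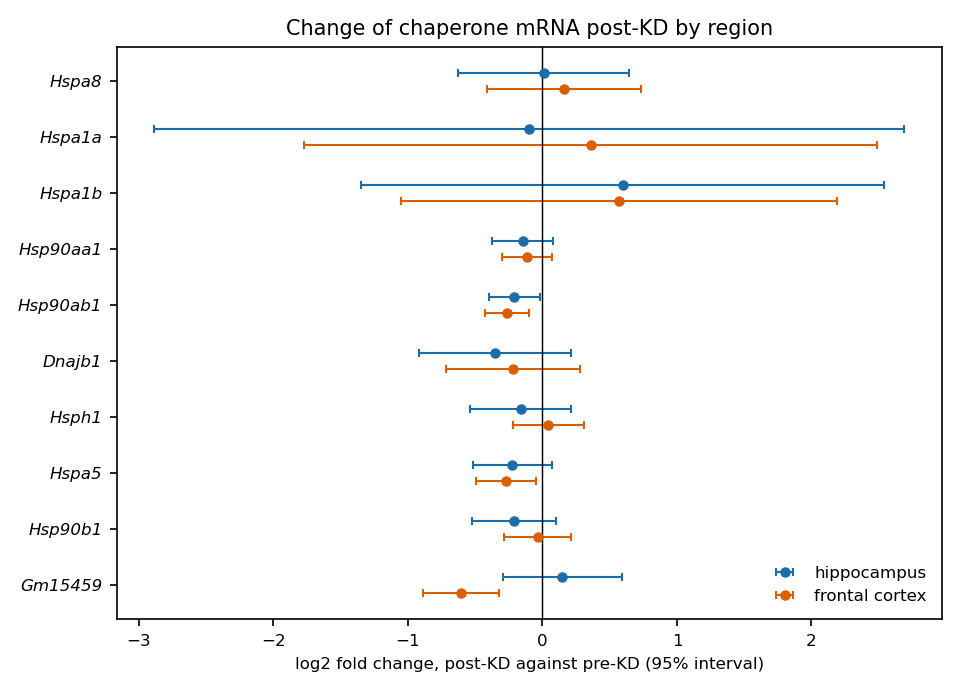
Log2 fold change post-KD against pre-KD of the 9 members and of the pseudogene Gm15459 (points, blue hippocampus and orange frontal cortex) with 95% intervals (bars). Among members the interval leaves out 0 for Hsp90ab1 in both regions and for Hspa5 in the frontal cortex, before any adjustment over genes, and the intervals of Hspa1a and Hspa1b are the widest.

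The counts assigned to Hspa8 showed no detectable difference post-KD. Hippocampal libraries ran from 21.2 to 95.1 CPM (median 41.0) pre-KD and from 13.7 to 97.5 CPM (median 47.5) post-KD, and the groups overlapped almost fully. The log2 fold change was 0.01 (SE 0.32, edgeR adjusted p = 0.9998, higher in 4 of 10 donor pairs). Frontal cortical libraries ran from 9.19 to 52.1 CPM (median 32) pre-KD and from 16.8 to 58.7 CPM (median 35.2) post-KD, with a log2 fold change of 0.16 (SE 0.29, adjusted p = 0.998, higher in 4 of 10 pairs), which ran from 0.03 without donor 6 to 0.28 without donor 10. The 95% intervals, -0.62 to 0.64 and -0.41 to 0.73 on the log2 scale, leave room for changes of either sign.

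More counts were listed for the pseudogene Gm15459 than for Hspa8 in 37 of 40 libraries. Of the counts of both genes together, Hspa8 held 34.5% in pre-KD and 32.6% in post-KD hippocampus, and 17.4% and 26.0% in the frontal cortex. In the frontal cortex Gm15459 ran from 128 to 227 CPM (median 150) pre-KD and from 82.7 to 135 CPM (median 102) post-KD, and it was lower post-KD in 10 of 10 donor pairs, although the 2 ranges still touched. Its log2 fold change there was -0.60 (SE 0.15, unadjusted p = 8.12e-05, edgeR adjusted p = 0.122), and by DESeq2 it passed the threshold with an adjusted p of 0.0104, in a range of 0.0104 to 0.393 over the alternatives. In the hippocampus it ran from 53.6 to 151 CPM (median 87.2) pre-KD and from 61.5 to 158 CPM (median 97.9) post-KD, a log2 fold change of 0.15 (SE 0.23, adjusted p = 0.9998). The difference between the regions in this change was 0.76 (SE 0.29, unadjusted p = 0.00783, edgeR adjusted p = 1). With the counts of Hspa8 and Gm15459 summed, a step chosen after seeing the data, the frontal cortical sum ran from 137 to 259 CPM (median 183) pre-KD and from 112 to 177 CPM (median 136) post-KD. Its log2 fold change of -0.44 (unadjusted p = 0.00155, adjusted p = 0.122) had the opposite sign to that of Hspa8 alone. Whether these counts come from Hspa8 or from Gm15459 transcripts was not tested.

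Hspa1a was at the limit of detection and Hspa1b was low. Hspa1a had no count in 11 of 20 hippocampal and 7 of 20 frontal cortical libraries, and Hspa1b in 5 and 3. A count of 0 still allows 3 counts, which is 1.54 to 2.63 CPM over the hippocampal library sizes and 1.43 to 2.52 CPM over the frontal cortical ones, for counting error only. Hspa1a ran from 0 to 8.27 CPM (median 0.311) pre-KD and from 0 to 10 CPM (median 0) post-KD in the hippocampus, and from 0 to 6.79 CPM (median 0.524) and from 0 to 9.43 CPM (median 2.84) in the frontal cortex. Hspa1b ran from 0 to 26.8 CPM (median 4.29) pre-KD and from 0 to 18.6 CPM (median 7.72) post-KD in the hippocampus, and from 0 to 13.4 CPM (median 3.80) and from 0.731 to 13.3 CPM (median 7.16) in the frontal cortex. Hspa1b was higher post-KD in 7 of 10 donor pairs in each region, but its log2 fold changes, 0.60 (SE 0.99) and 0.57 (SE 0.83), were smaller than their errors, with edgeR adjusted p values of 0.9998 and 0.991. Those of Hspa1a were -0.10 (SE 1.42) and 0.36 (SE 1.09). With the donor as a block they were 1.37 and 1.21 for Hspa1b and -0.27 and 0.95 for Hspa1a, with unadjusted p from 0.255 to 0.881, and the hippocampal Hspa1b value ran from 0.32 without donor 5 to 1.40 without donor 10. Changes of these transcripts smaller than several-fold were not detectable at these counts.

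The constitutive HSP90 Hsp90ab1, the most abundant member, had the lowest p of the 9 in both regions. Hippocampal libraries ran from 1569 to 3538 CPM (median 2125) pre-KD and from 1439 to 2230 CPM (median 1934) post-KD. Frontal cortical libraries ran from 1529 to 3347 CPM (median 2214) pre-KD and from 1650 to 2181 CPM (median 1877) post-KD. The groups overlapped in both regions, with the post-KD libraries inside a narrower range (SD 257 against 562 CPM in the hippocampus and 151 against 491 CPM in the frontal cortex, n = 10 each). The log2 fold change was -0.21 (SE 0.10, unadjusted p = 0.0356, edgeR adjusted p = 0.404, lower in 6 of 10 donor pairs) in the hippocampus and -0.26 (SE 0.08, unadjusted p = 0.00223, edgeR adjusted p = 0.122, lower in 8 of 10 pairs) in the frontal cortex. The adjusted p ran over the alternatives from 0.194 to 1 and from 0.0578 to 0.997. The highest library of each region was the pre-KD cohort of donor 8, and without both cohorts of that donor the changes were -0.09 (unadjusted p = 0.344) and -0.17 (unadjusted p = 0.0337). In the hippocampus the unadjusted p was also above 0.05 without donor 3 (-0.14, p = 0.190), without donor 4 (-0.18, p = 0.0831), by DESeq2 (p = 0.0722) and with a stricter filter on low counts (p = 0.0850).

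Hsp90aa1, the stress-responsive HSP90 that is also made constitutively in brain, had smaller log2 fold changes. It ran from 631 to 1022 CPM (median 756) pre-KD and from 607 to 885 CPM (median 686) post-KD in the hippocampus. In the frontal cortex it ran from 561 to 925 CPM (median 769) pre-KD and from 521 to 874 CPM (median 679) post-KD. The log2 fold changes were -0.15 (SE 0.12, edgeR adjusted p = 0.937, lower in 8 of 10 pairs) and -0.11 (SE 0.10, adjusted p = 0.914, lower in 7 of 10 pairs), with 95% intervals of -0.37 to 0.08 and -0.30 to 0.07. The frontal cortical value moved to -0.19 without donor 1 (unadjusted p = 0.0542), to -0.07 without donor 3 (p = 0.513) and to -0.07 without donor 6 (p = 0.482). In both regions the highest post-KD library was that of donor 2 and the lowest that of donor 3.

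The 2 partners of HSP70 showed no change past the test. Dnajb1, an HSP40 protein that hands clients to HSP70 and a classical target of heat shock factor 1, ran from 27.1 to 108 CPM (median 62.0) pre-KD and from 29.4 to 67.1 CPM (median 55.7) post-KD in the hippocampus. In the frontal cortex the wider group was the post-KD one, from 14 to 77.1 CPM (median 40.2) against 35.5 to 72.7 CPM (median 53.9) pre-KD. Its log2 fold changes were -0.35 (SE 0.29, edgeR adjusted p = 0.947) and -0.22 (SE 0.25, adjusted p = 0.971). Hsph1 ran from 36.2 to 258 CPM (median 191) pre-KD and from 120 to 239 CPM (median 180) post-KD in the hippocampus, where the pre-KD library of donor 7 was far below the next one at 162 CPM. In the frontal cortex it ran from 125 to 300 CPM (median 235) and from 140 to 304 CPM (median 240). Its log2 fold changes were -0.16 (SE 0.19, adjusted p = 0.9998, lower in 8 of 10 pairs) and 0.04 (SE 0.13, adjusted p = 0.998, higher in 7 of 10 pairs). With the donor as a block the hippocampal Hsph1 value was -0.07 (unadjusted p = 0.706) and the frontal cortical Dnajb1 value was -0.39 (unadjusted p = 0.142). The frontal cortical Hsph1 value ran from 0.00493 without donor 4 to 0.10 without donor 10.

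Of the ER chaperones, BiP (Hspa5) was counted at an unadjusted p under 0.05 in the frontal cortex. There it ran from 310.2 to 531 CPM (median 395) pre-KD and from 253 to 469 CPM (median 293) post-KD, with overlapping groups and the post-KD value lower in 9 of 10 donor pairs. The log2 fold change was -0.27 (SE 0.11, unadjusted p = 0.0202, edgeR adjusted p = 0.303), and it stayed between -0.25 and -0.31 when each donor was left out in turn, with unadjusted p from 0.0108 to 0.0480. In the hippocampus Hspa5 ran from 235 to 489 CPM (median 396) pre-KD and from 240 to 505 CPM (median 307) post-KD, a log2 fold change of -0.22 (SE 0.15, unadjusted p = 0.135, edgeR adjusted p = 0.821, lower in 6 of 10 pairs). The hippocampal value was -0.13 without donor 6 (unadjusted p = 0.409) and -0.30 by limma-voom (unadjusted p = 0.0297, adjusted p = 0.901). GRP94 (Hsp90b1), which shares the ER stress response element with Hspa5, ran from 187 to 362 CPM (median 264) and from 152 to 295 CPM (median 227) in the hippocampus, and from 164 to 274 CPM (median 213) and from 166 to 286 CPM (median 206) in the frontal cortex. Its log2 fold changes were -0.21 (SE 0.16, adjusted p = 0.905), or -0.13 without donor 6, and -0.03 (SE 0.13, adjusted p = 0.998).

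The change post-KD was not shown to differ between the regions for any member. When all 40 libraries were fitted together, with 1 term per cohort (20 cohorts), 0 of 9 members had an unadjusted p under 0.05 for the difference between regions, beside 2.22% of 19422 genes, and 0 passed the adjusted threshold, beside 0.0154%. The members' lowest unadjusted p was 0.424 (Hsp90b1). The 95% interval of the difference was -0.12 to 0.25 for Hsp90ab1 and -0.29 to 0.42 for Hspa5, in log2 units of hippocampus less frontal cortex. DESeq2 also gave 0 members at either threshold. With Hspa8 and Gm15459 summed, 1 member was counted, the sum standing at 0.56 (unadjusted p = 0.0256, adjusted p = 1) against -0.16 for Hspa8 alone.

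Between the regions themselves, taken from the same 20 cohorts, 1 member of 9 passed an adjusted p of 0.05, beside 2.85% of all genes, and 1.98% that were lower in the hippocampus. At an unadjusted p under 0.05 these were 2 members, 1 in each direction, beside 10.9% of all genes, with 2.78% higher in the hippocampus. The median log2 difference of the members was -0.01, against -0.17 over all genes. Hsph1 was lower in the hippocampus in 15 of 20 cohorts, at 183 ± 53.1 against 228 ± 49.5 CPM (SD, n = 20 each), a log2 difference of -0.37 (SE 0.11, edgeR adjusted p = 0.0328). Without both cohorts of donor 7, which include the hippocampal library at 36.2 CPM, the difference was -0.22 (unadjusted p = 0.0525, adjusted p = 0.526). The adjusted p was also above 0.05 without donor 1 (0.0537), donor 2 (0.0562), donor 8 (0.0982) or donor 10 (0.0546), without the cohort term (0.0596), with other size factors (0.0652), with a stricter filter on low counts (0.0719) and by DESeq2 (0.0667), with differences between -0.34 and -0.38. Hspa8 was higher in the hippocampus in 15 of 20 cohorts, at 51.4 ± 23.3 against 34.5 ± 13.1 CPM, a log2 difference of 0.51 (SE 0.25, unadjusted p = 0.0438, edgeR adjusted p = 0.435). Gm15459 was lower there in 14 of 20 (log2 difference -0.42, SE 0.14, adjusted p = 0.0949), and the sum of both was -0.15 (unadjusted p = 0.236). For Hsp90aa1 and Hsp90ab1 the regions lay close together, with log2 differences of -0.01 (95% interval -0.14 to 0.13) and -0.03 (-0.13 to 0.06). CPM were scaled within each region and the fit over all 40 libraries, so levels and log2 differences can differ in sign. Hsp90aa1 averaged 740 CPM in the hippocampus against 730 CPM in the frontal cortex, beside its log2 difference of -0.01. The remaining members had adjusted p values of 0.546 or more, with log2 differences of 0.19 (SE 0.11) for Hsp90b1, 0.31 (SE 0.22) for Dnajb1, -0.06 (SE 0.09) for Hspa5, 0.14 (SE 0.88) for Hspa1b and -1.13 (SE 1.24) for Hspa1a. Markers of other tissue differed between the regions beside these values. The summed level of 6 choroid plexus markers ran from 465 to 4343 CPM in the hippocampus and from 1.57 to 580 CPM in the frontal cortex, 3 of 6 neuron markers were lower and 5 of 5 striatal markers tested were lower in the hippocampus at an adjusted p under 0.05, and their part in the result for Hsph1 was not tested. Region and deposited table cannot be told apart, since each table holds 1 region, and in bulk tissue fewer cells of a type cannot be told apart from less RNA per cell.

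**Figure D4:**
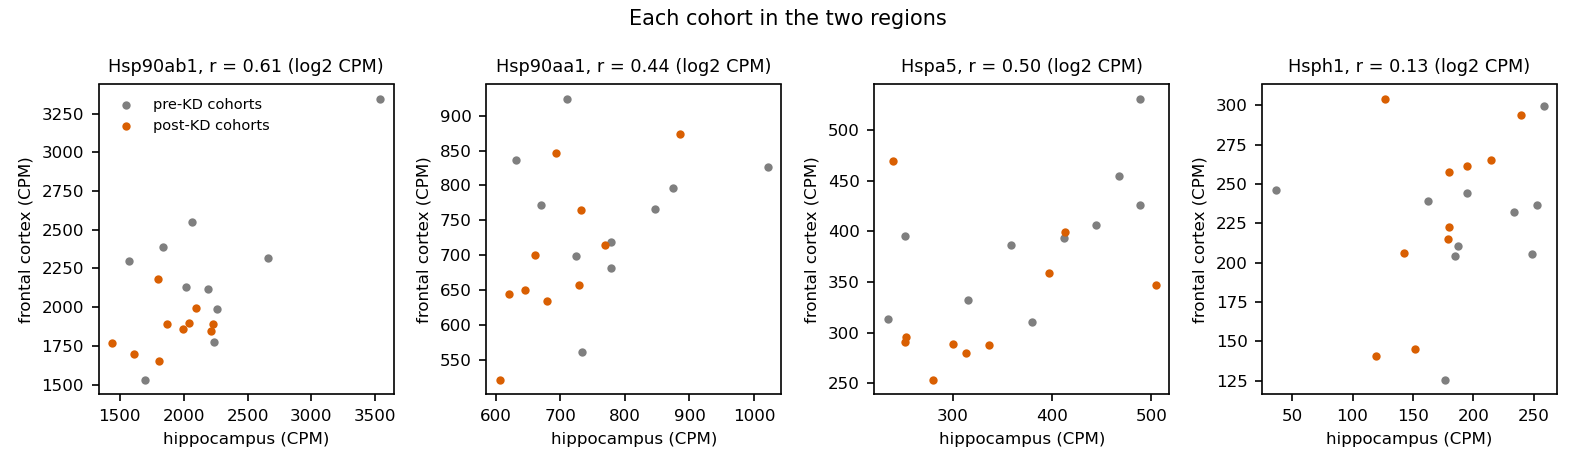
CPM in the frontal cortex against CPM in the hippocampus for Hsp90ab1, Hsp90aa1, Hspa5 and Hsph1, 1 point per cohort (grey pre-KD, orange post-KD, 20 cohorts), with Pearson's r of log2 CPM in each title. The axes do not start at 0. The pre-KD cohort of donor 8 lies alone at the upper right for Hsp90ab1.

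Whether a cohort that was high in one region was also high in the other was asked over the 20 cohorts on log2 CPM. None of 9 correlations passed an adjusted p of 0.05 (permutation test, two-sided, 100000 resamples), but with other size factors 1 did, that of Hsp90ab1 (r = 0.66, permutation p = 0.00423, adjusted 0.0381). Hsp90ab1 had r = 0.61 (permutation p = 0.00786, adjusted over 9 members 0.0707) and rho = 0.36 (p = 0.118, adjusted 0.282), with 0.59 within the pre-KD and 0.36 within the post-KD cohorts. Without the 2 cohorts farthest from the hippocampal median its r was 0.23, so the relation rested on those cohorts. Hspa5 had r = 0.50 (permutation p = 0.0245, adjusted 0.1103) and rho = 0.47 (p = 0.0376, adjusted 0.282), 0.53 without the 2 farthest cohorts, 0.67 within the pre-KD and 0.20 within the post-KD cohorts. Hsp90aa1 had r = 0.44 (permutation p = 0.0495, adjusted 0.149) and rho = 0.39 (p = 0.0917, adjusted 0.282), 0.30 without the 2 farthest cohorts, with 0.07 within the pre-KD and 0.75 within the post-KD cohorts. The other 6 lay between -0.09 and 0.37. Among them Hsph1 moved from r = 0.13 to r = 0.42 (permutation p = 0.0757, adjusted 0.147) without the pre-KD cohort of donor 7, an alternative chosen after seeing the data. Over 4453 genes averaging at least 50 counts in both regions the median r was 0.03, with quartiles of -0.12 and 0.19. Within a region 0 of 36 pairs of members passed the adjusted threshold in either region, by r or by rho, and the median r of the pairs was 0.12 in the hippocampus against 0.08 in the frontal cortex. The pair with the highest r in each region was Hspa1a with Hspa1b in the frontal cortex (r = 0.58, rho = 0.60, permutation p = 0.00783 and 0.00571, adjusted 0.282 and 0.206) and Hspa5 with Hsph1 in the hippocampus (r = 0.50, rho = 0.58, p = 0.00841 and 0.00775, adjusted 0.303 and 0.0921). Without the 2 farthest libraries these were r = 0.53 and r = 0.54. In the other region r was 0.13 for Hspa1a with Hspa1b and -0.10 for Hspa5 with Hsph1.

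The genes whose deviations followed Dnajb1 most closely among 4446 genes were Cacna2d1 (mean r over the regions 0.66), which encodes a calcium channel subunit, Spock1 (0.59) and the proteasome ATPase gene Psmc3 (0.59). Those most like Hspa5 were Zc3h13 (0.66), Tmod2 (0.63) and Chga (0.58), which encodes chromogranin A of secretory granules. These values describe the best of many genes over 20 libraries per region that share depth and scaling, and no p was given to them.

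No gene of the wider folding machinery passed the adjusted threshold post-KD. Of 94 listed genes in 8 groups 93 were tested in each region, and 0 passed an adjusted p of 0.05. At an unadjusted p under 0.05, 1 was higher and 2 were lower post-KD in the hippocampus, 3.23% of those tested, beside 10.1% of all genes. In the frontal cortex 3 were higher and 1 was lower, 4.30%, beside 9.68% of all genes. With the donor as a block, 348 in place of 1762 hippocampal and 548 in place of 1731 frontal cortical genes were counted. The listed genes were not counted under that fit, so no lower share is read from these values. Among the 4 heat shock factors, Hsf4 (log2 fold change -2.89, SE 1.31, unadjusted p = 0.0292, adjusted p = 0.354) and Hsf5 (lower post-KD, unadjusted p = 0.00246, adjusted p = 0.0774) were counted in the hippocampus. Both were near the limit of detection, Hsf4 with a pre-KD mean of 7.09 ± 7.68 CPM against 0.885 ± 1.59 CPM post-KD and Hsf5 at 1.58 ± 3.6 CPM pre-KD with no count in any post-KD library. Hsf1, the factor of the heat shock response, was not among them. Of 12 other inducible heat shock genes, Cryab, a small heat shock protein of glia, was counted in the frontal cortex, with a pre-KD mean of 53.7 ± 24.5 CPM against 75 ± 29.2 CPM post-KD (log2 fold change 0.48, SE 0.23, unadjusted p = 0.0400, adjusted p = 0.460). The median of this group was -0.20 in the hippocampus against 0.04 in the frontal cortex. In the test of the difference between regions in the change, 11 of these 12 genes lay below 0, beside 53.9% of all genes. A value below 0 means that the change post-KD was lower in the hippocampus than in the frontal cortex. Of the 12, 3 were counted beside 2.22% of all genes, Bag3 (unadjusted p = 0.0219), Chordc1 (p = 0.0255) and Hspb8 (p = 0.0443), each with an edgeR adjusted p of 1. Trap1 was the only other gene of the 93 counted there (p = 0.0415, adjusted p = 1), and these 4 were looked at after their values were seen. Bag3 and Hspb8 were near the limit of detection, with log2 differences of -3.87 and -3.01. Group means ran from 2.54 ± 3.65 to 11.1 ± 9.72 CPM for Bag3 and from 4.26 ± 8.13 to 11.8 ± 7.22 CPM for Hspb8. Chordc1, at group means of 43.1 to 64.99 CPM, had a log2 difference of -0.97. In the same test 3 of 5 striatal, 2 of 4 blood and 1 of 6 endothelial markers were also counted below 0, none past the adjusted threshold, and their part in these values was not tested. None of 14 constitutive HSP70 and HSP40 genes (medians -0.12 and -0.13), 10 HSP90 co-chaperones (-0.01 and -0.12) or 13 TRiC and prefoldin genes (0.04 and -0.02) was counted in either region.

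Of 8 mitochondrial chaperones, Trap1, the mitochondrial HSP90, was counted in the frontal cortex, with a pre-KD mean of 18.6 ± 9.96 CPM against 39.7 ± 18.4 CPM post-KD (log2 fold change 1.08, SE 0.33, unadjusted p = 0.00180, edgeR adjusted p = 0.122), and the group medians were 0.15 and 0.34. Of 18 ER folding factors, Dnajc10, an ER disulfide reductase with a J domain, was counted in the hippocampus, with a pre-KD mean of 56.4 ± 13.7 CPM against 82.9 ± 35.5 CPM post-KD (log2 fold change 0.56, SE 0.27, unadjusted p = 0.0432, adjusted p = 0.454). Dnajb11, a J-domain partner of BiP, was counted in the frontal cortex with a lower post-KD level, 26.1 ± 6.76 against 13.2 ± 7.91 CPM (log2 fold change -0.98, SE 0.41, unadjusted p = 0.0208, adjusted p = 0.309). Ero1lb, an ER oxidase gene, was counted there with a higher one, 1.84 ± 2.41 against 8.31 ± 7.74 CPM (log2 fold change 2.13, SE 0.95, unadjusted p = 0.0281, adjusted p = 0.377). The medians of the ER folding factors were -0.17 and -0.07, and none of 14 genes of the unfolded protein response sensors and ER-associated degradation was counted (medians -0.21 and -0.04). Between the regions 1 of the 93 passed the adjusted threshold, beside 2.85% of all genes. It was Hspa2, an HSP70 of testis and brain, which was higher in the hippocampus (log2 difference 1.41, SE 0.35, edgeR adjusted p = 0.00312).

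Other lists that could move with chaperone levels were read in the same fits. Of 11 immediate early genes, which report recent neuronal activity, and of Cirbp and Rbm3, the cold-inducible RNA-binding proteins, 0 had an unadjusted p under 0.05 post-KD in either region. The summed immediate early level ran from 219 to 388 CPM pre-KD and from 197 to 550 CPM post-KD in the hippocampus, and from 237 to 582 and from 208 to 524 CPM in the frontal cortex. None of the neuron, astrocyte, microglia, endothelium or pericyte markers was counted post-KD in either region, 27 genes in all. In the frontal cortex, beside the lower Hsp90ab1 and Hspa5 values, 2 of 4 blood markers tested (Hba-a1 and Hbb-bs) were counted with higher post-KD levels. The summed blood level there ran from 386 to 1150 CPM (median 702) pre-KD and from 541 to 1380 CPM (median 926) post-KD, and the summed striatal level from 364 to 809 CPM (median 671) and from 532 to 814 CPM (median 720). In the hippocampus, beside the lower Hsp90ab1 values, Prox1, Wfs1 and Tdo2 of 8 hippocampal markers, Mog of 6 oligodendrocyte markers and Ppp1r1b of 5 striatal markers were counted, in both directions, and the summed hippocampal level ran from 900 to 1370 CPM (median 1078) pre-KD and from 897 to 1283 CPM (median 1061) post-KD. The summed striatal level in the hippocampus ran from 62.6 to 243 CPM (median 124) pre-KD and from 25.3 to 160 CPM (median 84.3) post-KD. All 5 striatal markers tested there had a log2 fold change below 0, with a median of -0.60. The part of these markers in the chaperone values was not tested.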

How the data were processed

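The authors deposited 1 table of raw counts per gene for each brain region, and these counts are whole numbers per gene with no normalization. Per the labels and the study's methods, libraries were prepared with a TruSeq kit and sequenced as paired reads of 69 bases. The submitters' processing notes name FastQC 0.11.5, STAR 2.5.2a, SAMtools 1.3, HTSeq 0.6.0 and the build mm10. The strand setting, the treatment of reads with several alignments and the annotation release are not given in the sources used here. The study's list of resources also names a QuantSeq FWD kit and the aligner HISAT2. Each library is a pool of 6 mice, so p values measure the spread between pools.

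Genes reaching a sum of 10 counts in a fit's libraries entered the test, which was that of edgeR 4.0.16 (R 4.3.3; quasi-likelihood test, TMM normalization, Benjamini-Hochberg adjustment over all genes of the fit, threshold 0.05). Post-KD was set against pre-KD within each region, over 20 libraries and with no donor term. The study names DESeq2 for this comparison and states no design formula. The regions, and their interaction with condition, were fitted on all 40 libraries with 1 term per cohort (20 cohorts). Intervals are 95%, from the standard error implied by the test, and levels are CPM with TMM factors computed within each region. Correlations were computed on log2 CPM (prior count 2, 100000 permutations). The fits within each region and between the regions, but not that of the interaction, were run on simulated counts without donor or cohort effects. Those runs cannot show how such effects bear on the tests. Totals of 1140756 to 2095352 counts leave genes of a few CPM with a few counts per library. Equal replicate numbers name the same stool donor, so the numbers pair the samples. The deviations of same-numbered libraries had correlations of -0.03 to 0.03 for hippocampal pairs and -0.06 to 0.03 for frontal cortical pairs.

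Alternatives were DESeq2 1.42.0, limma-voom with sample weights (limma 3.58.1), other size factors, the filterByExpr filter, no filter on low counts, fits with or without the donor or cohort block, leaving out each donor, and summing near-identical genes. Gene positions came from GENCODE M21 for 47224 of 47643 identifiers, promoters from RefSeq (GRCm38.p6), and shared sequence from exact matches and BLAST+ 2.17.0. The genes named beyond the 9 members are, from each list and post-KD fit, at most 3 with the smallest unadjusted p under 0.05, and for Dnajb1 and Hspa5 the 3 genes with the highest mean r. Gm15459, Hspa2, the marker genes and the genes of the interaction test were named after their values were seen. The members and lists were chosen with earlier results of these data known. The result for 1 marker gene is not reported here.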

Additional observations from a re-analysis of the deposited data

Results flagged for a closer look

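Within each group of 10 libraries the highest and the lowest value of every member were compared with the nearest other value, 36 groups in all, and 2 stood apart by Dixon's 95% limit. Chance flags about 1 in 20 groups. The pre-KD hippocampal library of donor 10 had 26.8 CPM of Hspa1b, with the next highest at 9.93 CPM, and the log2 fold change without that donor was 1.40 in place of 0.60. The pre-KD hippocampal library of donor 7 had 36.2 CPM of Hsph1, with the next lowest at 162 CPM. No explanation was tested for either value.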

How the results depend on the processing

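No member passed an adjusted p of 0.05 for the change post-KD in either region, or for the difference between regions in that change, under any alternative. Counts of calls did move. By DESeq2, 0 members and 599 genes had an unadjusted p under 0.05 in the hippocampus and 825 genes in the frontal cortex, with 0 and 2 genes past the adjusted threshold. With filterByExpr these were 0 members and 221 genes, and 407 genes, with 0 genes adjusted in the hippocampus. By limma-voom they were 2 members (Hsp90ab1 and Hspa5) and 962 genes, and 1071 genes with 3 adjusted. With no filter on low counts they were 2931 genes with 1291 adjusted, and 3035 genes. With the donor as a replicate block they were 348 genes with 0 adjusted, and 548 genes with 3 adjusted, and the block changed no member's call (Hsp90ab1 -0.18 and -0.24), although it moved Hspa8, Hspa1a, Hspa1b, Dnajb1 and Hsph1 values by over 1.5 times. Between the regions 0 members passed the adjusted threshold by DESeq2 (1033 genes), with other size factors, with filterByExpr and without the cohort block (3475 genes unadjusted, 1935 adjusted). For the difference in the change, DESeq2 gave 949 genes unadjusted and 0 adjusted, filterByExpr 0 adjusted, and the fit without the block 1767 and 348. With other size factors 1 correlation between regions passed the adjusted threshold (Hsp90ab1, r = 0.66). Summing near-identical genes and leaving out the pre-KD cohort of donor 7 were chosen after seeing the data. The sum turned Hspa8 to -0.44 in the frontal cortex, -0.15 between regions and 0.56 for the difference in the change (1 member unadjusted in each of the last 2), with a correlation of -0.15, and Hspa1a to 0.45 in the hippocampus and 0.13 between regions. Signs also turned between regions for Hsp90aa1 (0.0271 by DESeq2 and 0.0277 with other size factors) and Hsp90ab1 (0.00304 and 0.00283), without the block for the difference in Hspa1b (0.0307) and Dnajb1 (-0.13), and for the correlation of Dnajb1 with centred values (-0.0602). The cause was not tested. Leaving out each donor in turn gave 0 to 1 members and 1636 to 1755 genes unadjusted, and 0 to 1 genes adjusted, in the hippocampus. It gave 2 members, 1570 to 1718 genes and 1 gene adjusted in the frontal cortex, 0 to 3 members and 1859 to 2145 genes unadjusted with 0 to 1 members and 447 to 555 genes adjusted between regions, and 386 to 471 genes unadjusted with 2 to 4 adjusted for the difference. Signs turned without single donors for Hspa8 (-0.21 to 0.17) and Hspa1a (-0.96 to 0.57) in the hippocampus, for Hspa1a (-0.15 to 0.83) and Hsp90b1 (-0.0972 to 0.0113) in the frontal cortex, between regions for Hspa1b (-0.12 to 0.55), Hsp90aa1 (-0.0241 to 0.0186) and Hsp90ab1 (-0.0640 to 0.0114), and for the difference in Hspa8 (-0.44 to 0.14), Hspa1b (-0.60 to 0.38), Hsp90aa1 (-0.0904 to 0.0501), Dnajb1 (-0.11 to 0.30) and Hspa5 (-0.0181 to 0.15). Hspa1a and Hspa1b had few counts, and the parts of depth and shared sequence in this were not tested.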
